A study of Homo sapiens with 23 samples.

Results

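The comparison set SUDHL-2 against SUDHL-4, a pair of cell lines from diffuse large B-cell lymphoma (DLBCL), in the polysomal RNA of cells that had received only a vehicle. It used the 12 control arrays of 23 in the series: 3 SUDHL-2 arrays with 0.01% DMSO, 3 SUDHL-4 arrays with 0.01% DMSO, 3 SUDHL-2 arrays with water and 3 SUDHL-4 arrays with water. The DMSO arrays were the controls of an experiment with 40 nM INK128, an inhibitor of the kinase mTOR, and the water arrays were the controls of an experiment with 20 mM EtOH. The other 11 arrays came from the treated cells (3 SUDHL-2 and 3 SUDHL-4 arrays with INK128, 2 SUDHL-2 and 3 SUDHL-4 arrays with EtOH), and were used only as arrays outside the choice of genes. Both lines were grown in RPMI medium with 10% fetal bovine serum and came from ATCC. Each subtype is represented by a single line, so line and subtype cannot be told apart. Vehicle, experiment and time in culture cannot be told apart either.

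DLBCL is divided by gene expression into an activated B-cell-like (ABC) and a germinal center B-cell-like (GCB) form. ABC tumors carry features of B cells leaving the germinal center toward plasma cells, with the transcription factor IRF4 and constitutive NF-kB signaling, whereas GCB tumors keep genes of the germinal center such as BCL6 and MME (CD10). SUDHL-2 stands for the ABC-like form here and SUDHL-4 for the GCB-like form. The RNA came from the heavy fractions of a sucrose gradient (fractions 9 to 11), where mRNAs carrying many ribosomes sediment, so a level here combines how much mRNA a line held and how much of it was on polysomes. Total RNA was not analysed here.

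Levels are given on a log2 scale after each array was brought to the same mean and spread. The median entry lay between 7.68 and 7.88 and the 90th percentile between 11.26 and 11.32. A signal below the lowest detected signal of its array was set to that signal, which lay at 5.88 to 6.41 on this scale. A gene detected on no array of a group therefore has only an upper limit there, and its difference is given as "at least" a fold: the mean of the bright group against the mean of those limits. A difference is SUDHL-2 minus SUDHL-4, with its standard error from the moderated test of limma fitted on all 13726 entries of a vehicle (10042 genes by symbol and 3684 probes without a single symbol), and a call needs a Benjamini-Hochberg adjusted p under 0.05. The labels do not say that the arrays of a group came from separate cultures, so p-values measure the spread between these arrays, which may in part be technical.

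Within each vehicle the lines differed at most of the entries measured, though fewer were called in both. With DMSO 8653 entries were called (63%), 4100 higher in SUDHL-2 (29.9%) and 4553 lower (33.2%), and with water 8999 (65.6%), 3788 higher (27.6%) and 5211 lower (38%). The split by direction with water moved with the scaling: 42.1% of the calls were higher in SUDHL-2 in the scaling used here, and 55.3% when the Z-score was taken over all probes. In both vehicles and in the same direction, 5357 entries were called (39%), of which 2445 were higher in SUDHL-2 (17.8% of all entries) and 2912 were lower (21.2%); 643 were called in opposite directions (4.68%). A difference of at least 1 on the log2 scale, 2-fold, in each vehicle was found for 750 entries higher in SUDHL-2 (5.46%) and 764 lower (5.57%). The median difference of all entries was −0.10 with DMSO and −0.11 with water, and the median of a gene list is to be read against it.

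**Figure D1:**
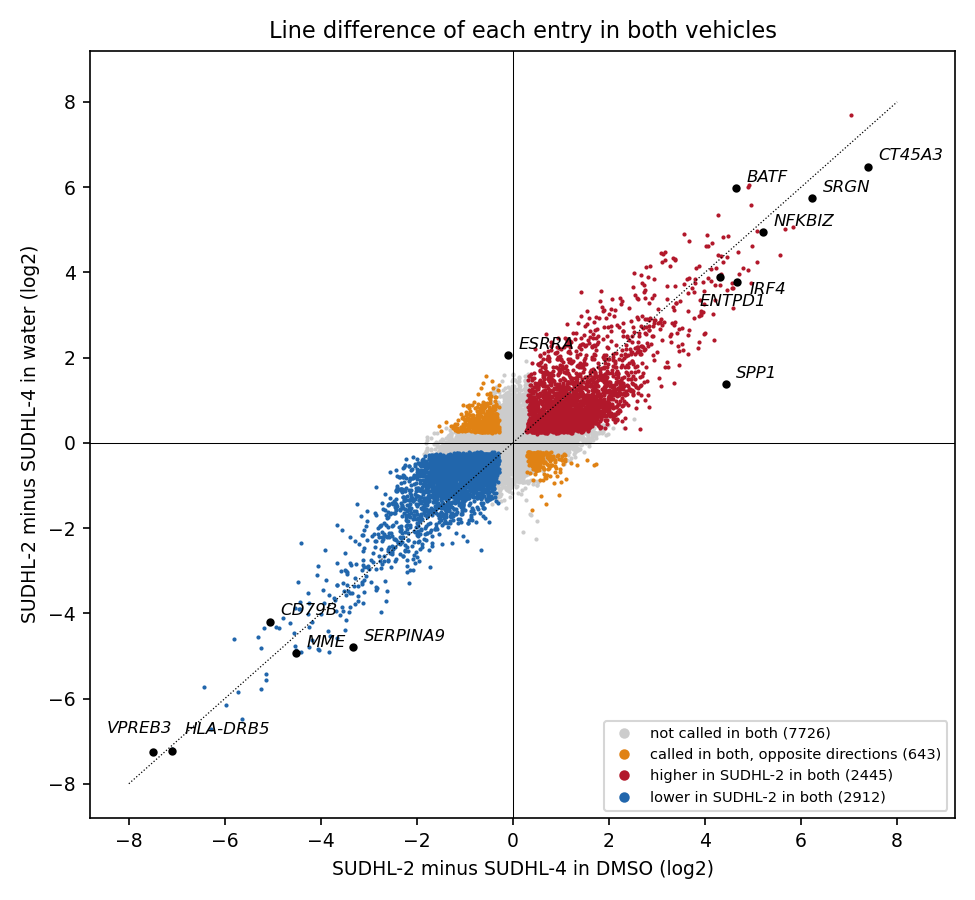
Each dot is an entry, placed by its difference between the lines (SUDHL-2 minus SUDHL-4, log2) with DMSO on the horizontal axis and with water on the vertical axis, and colored by its calls; the dotted line marks equal differences. The 2445 entries higher and the 2912 entries lower in SUDHL-2 in both vehicles fill the upper right and lower left, and the 643 called in opposite directions lie in the other quadrants.

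The arrays had 14699 to 17098 probes detected, and Pearson correlations between arrays of a group ran from 0.975 to 0.997. Before scaling, the median signal was 64.8 to 76.8 on the DMSO arrays and 48.6 to 58.9 on the water arrays. The lowest detected signal was 80.1 to 91.4 with DMSO and 62.1 to 74.2 with water. The highest number of detected probes was on SUDHL-2 DMSO replicate 1 (17098) and the next on SUDHL-2 water replicate 2 (16912). The control arrays of the 2 experiments also differed from each other, and unevenly by line: between DMSO and water 1683 entries differed by at least 1 on the log2 scale in SUDHL-2, against 65 in SUDHL-4. Calls between DMSO and water numbered 6634 in SUDHL-2 (48.3%), against 2978 in SUDHL-4 (21.7%). Results that rest on 1 vehicle are therefore given beside the other vehicle below.

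**Figure D2:**
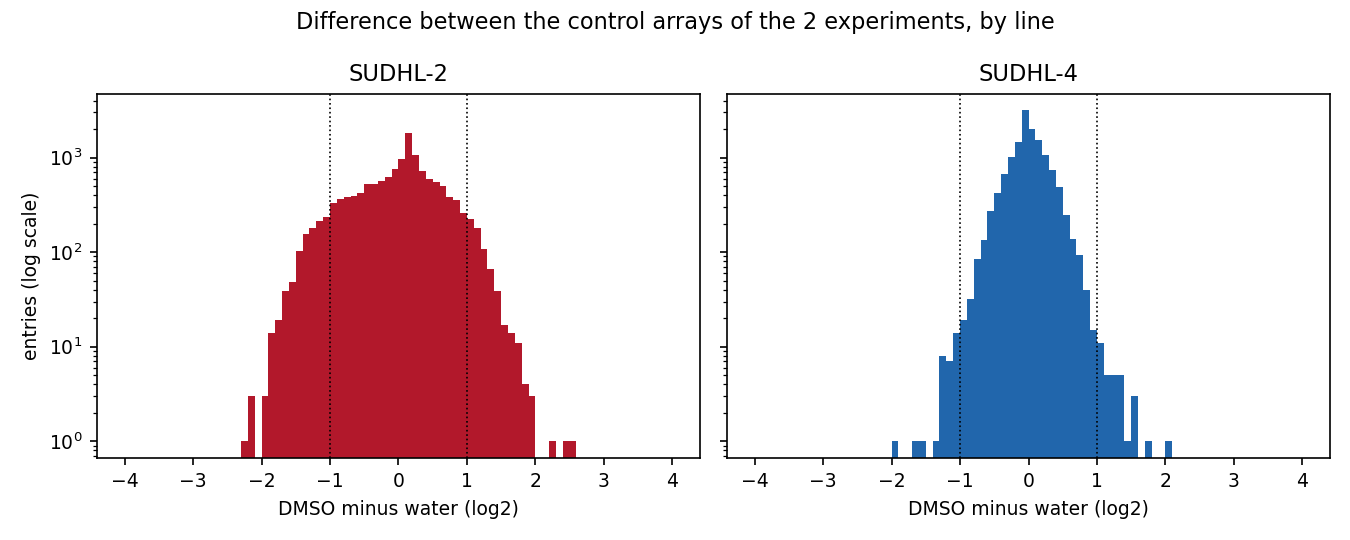
Histograms of the difference DMSO minus water (log2) over all 13726 entries, in SUDHL-2 on the left and SUDHL-4 on the right, with the number of entries on a log axis; dotted lines mark a difference of 1. The SUDHL-2 histogram is wider, with 1683 entries at or beyond 1, against 65 in SUDHL-4.

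The subtype markers separated the lines in every array. BATF, an AP-1 family factor used by activated lymphocytes, was at 10.88, 11.15 and 10.92 in the SUDHL-2 DMSO arrays, against 6.27, 6.38 and 6.34 in the SUDHL-4 DMSO arrays. With water it was at 12.31, 12.15 and 12.52 in SUDHL-2, against 6.36, 6.34 and 6.35 in SUDHL-4. BATF was detected on no SUDHL-4 array, so it was at least 25.1-fold higher in SUDHL-2 with DMSO (4.65 ± 0.12, SE, adjusted p = 3.3e-09) and at least 62.8-fold higher with water (5.97 ± 0.11, adjusted p = 1.1e-10). IRF4, the factor that drives B cells toward plasma cells, was at 11.21, 10.93 and 10.82 in SUDHL-2 with DMSO and 10.13, 10.30 and 9.96 with water. No SUDHL-4 array detected IRF4, which gives at least 25.2-fold with DMSO (adjusted p = 4.2e-09) and at least 13.7-fold with water (adjusted p = 9.7e-10). ENTPD1 (CD39), an ectoenzyme that breaks down extracellular ATP, was at 10.54, 10.69 and 10.70 in SUDHL-2 with DMSO and 10.36, 10.20 and 10.16 with water, and again no SUDHL-4 array detected it, for at least 19.8-fold and at least 14.8-fold. All SUDHL-2 arrays lay above all SUDHL-4 arrays for these 3 genes.

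MME, the peptidase known as CD10, ran the other way. Its levels were 6.21, 6.44 and 6.36 in SUDHL-2 with DMSO, against 10.94, 10.87 and 10.75 in SUDHL-4, a difference of −4.52 ± 0.12 (adjusted p = 3.5e-09). With water no SUDHL-2 array detected MME, while SUDHL-4 arrays were at 10.96, 11.16 and 10.85, at least 30.7-fold higher in SUDHL-4 (adjusted p = 3.1e-10). SERPINA9, a serpin named for its expression in germinal center B cells, was detected on no SUDHL-2 array. In SUDHL-4 it was at 9.60, 9.63 and 9.41 with DMSO, at least 10.0-fold above SUDHL-2, and at 10.77, 11.12 and 10.62 with water, at least 27.6-fold above. CD79B, a signaling chain of the B-cell receptor, was detected in both lines, at 8.22, 8.18 and 8.19 in SUDHL-2, against 13.23, 13.20 and 13.32 in SUDHL-4 with DMSO. With water it was at 9.46, 9.62 and 9.46 in SUDHL-2, against 13.80, 13.70 and 13.63 in SUDHL-4. CD79B was thus lower in SUDHL-2 by −5.05 ± 0.11 with DMSO (adjusted p = 2.4e-09) and −4.20 ± 0.09 with water (adjusted p = 2.7e-10).

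**Figure D3:**
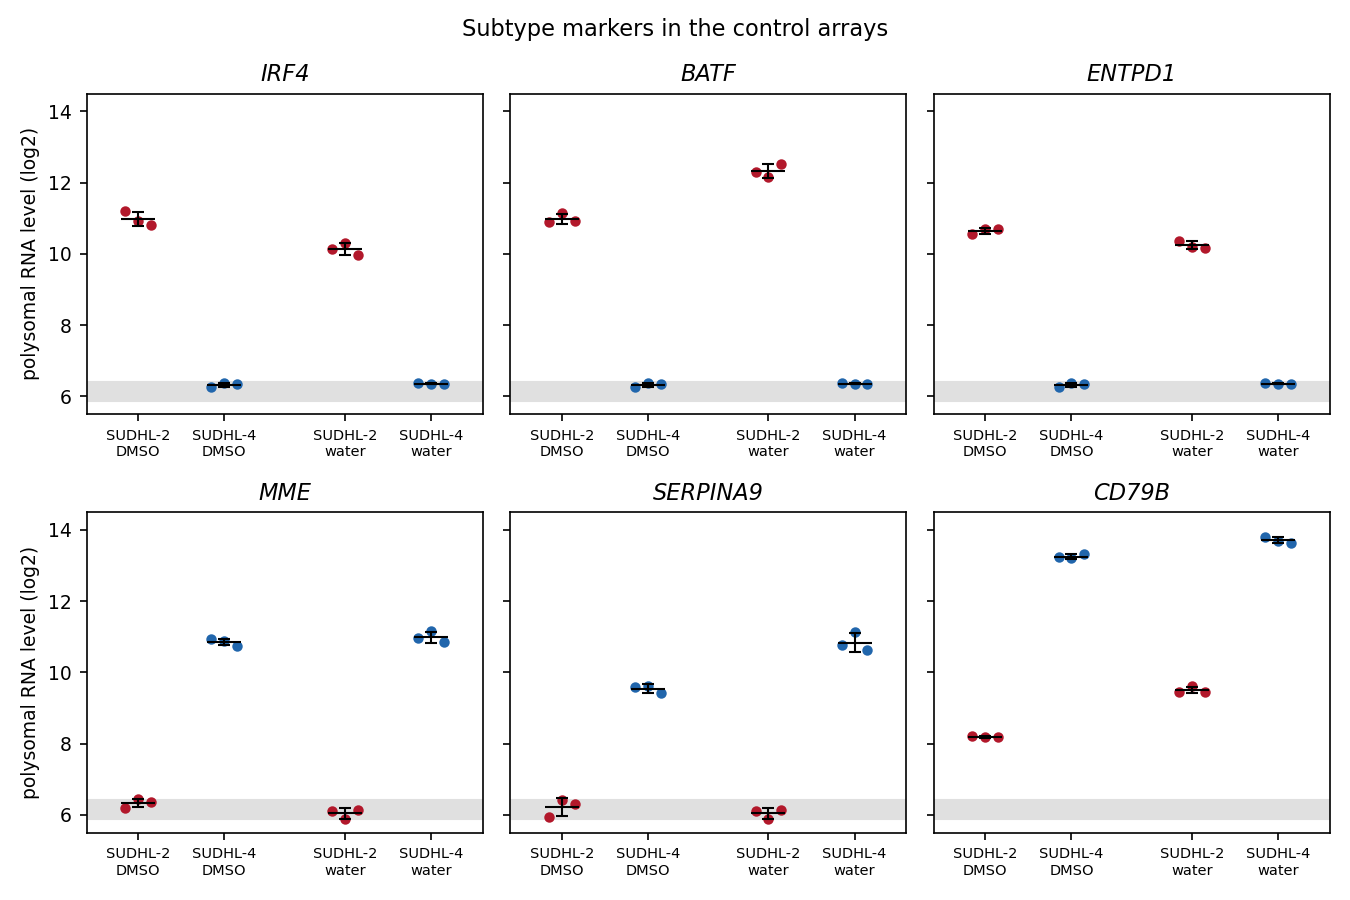
Level (log2) of 6 subtype markers on each control array, with SUDHL-2 in red left of SUDHL-4 in blue for each vehicle; bars are the mean ± SD of 3 arrays, and the gray band spans the array floors, 5.88 to 6.41. IRF4, BATF and ENTPD1 sit on the floor in SUDHL-4, SERPINA9 sits on it in SUDHL-2, MME lies at or just above it in SUDHL-2, and CD79B lies above it in both lines.

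Of 16 tested members of a list of genes known to be high in ABC tumors, 13 were higher in SUDHL-2 in both vehicles and none was lower, against 17.8% of all entries higher. Another 4 on the array did not pass the detection filter. Of the 13, 6 were detected only in SUDHL-2 and passed the filter through that line alone, which set their direction. Each of the 13 passed 1 on the log2 scale in each vehicle. The list's median difference was 1.69 with DMSO and 2.38 with water. CYB5R2, a cytochrome b5 reductase, was at least 33.7-fold and at least 31.6-fold higher in SUDHL-2 with DMSO and water, and RAB29, a small GTPase, at least 19.2-fold and at least 21.1-fold. TNFRSF13B (TACI), a receptor for the B-cell survival factors BAFF and APRIL, was at least 5.81-fold and at least 11.0-fold higher. No SUDHL-4 array detected these 3 genes. The 3 members without a call in both vehicles, looked up after their values were seen, were PRKCB, IL16 and FOXP1. FOXP1, a transcription factor whose shorter isoforms mark ABC tumors, differed by −0.03 ± 0.11 (adjusted p = 0.84) with DMSO and −0.51 ± 0.09 (adjusted p = 6.6e-04) with water, and its sign with DMSO depended on the scaling and on the probe.

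Among 24 tested members of the matching GCB list, 16 were lower in SUDHL-2 in both vehicles, against 21.2% of all entries. Of these 16, 9 passed 1 on the log2 scale in each vehicle, and 2 were detected only in SUDHL-4, which set their direction. The list's median was −0.84 with DMSO and −1.16 with water. VPREB3, a chaperone-like protein of the immunoglobulin light chain family, had the largest mean difference over both vehicles of the genes named here that were lower in SUDHL-2. It was not detected in SUDHL-2 with DMSO and was at 6.87, 6.66 and 6.88 there with water, against 13.64, 13.85 and 13.67 in SUDHL-4 with DMSO and 14.15, 14.00 and 14.01 with water. That is at least 181-fold with DMSO (adjusted p = 1.4e-09) and −7.25 ± 0.10 with water (adjusted p = 4.8e-11). CD38, an ectoenzyme of germinal center B cells and plasma cells, differed by −3.70 ± 0.15 and −3.95 ± 0.12, IRAG2, once called LRMP, by −2.08 ± 0.13 and −2.98 ± 0.10, and ASB13, an adaptor of ubiquitin ligases, by −2.52 ± 0.18 and −2.20 ± 0.09, with DMSO and water. Every SUDHL-2 DMSO array was at its floor for CD38, so its difference there is at least of that size. BCL6, the repressor that holds the germinal center program, differed by far less, at −0.82 ± 0.20 (adjusted p = 0.0055) and −0.65 ± 0.10 (adjusted p = 4.2e-04). Its levels were 11.68, 10.83 and 10.99 in SUDHL-2, against 12.13, 11.88 and 11.94 in SUDHL-4 with DMSO.

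Against the list's name, 3 GCB members were higher in SUDHL-2 in both vehicles, named after their values were seen. LMO2, a bridging protein of transcription complexes, was higher by 1.98 ± 0.11 with DMSO and 2.72 ± 0.12 with water. DENND3, an activator of Rab GTPases, was higher by 0.91 ± 0.16 and 2.25 ± 0.09. EZH2, the histone H3 lysine methyltransferase of Polycomb repressive complex, was higher by 1.55 ± 0.12 and 0.51 ± 0.11, and its complex partner EED by 2.50 ± 0.26 and 1.15 ± 0.17.

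Many genes of the B-cell receptor arm were lower in SUDHL-2. The receptor signals through the CD79A and CD79B chains, which pass the signal to the kinases LYN, BLK, SYK and BTK, with CD22 and CD72 as inhibitory coreceptors. Of 25 tested members of this list, 13 were lower in SUDHL-2 in both vehicles (52%, against 21.2% of all entries). Another 5 were higher (20%, against 17.8%), and the list's medians were −0.50 and −0.41. CD79A was at 8.001, 7.82 and 7.88 in SUDHL-2, against 11.01, 10.86 and 10.66 in SUDHL-4 with DMSO, and at 8.55, 8.45 and 8.64 in SUDHL-2, against 10.78, 10.85 and 10.59 in SUDHL-4 with water. The lines did not overlap, and the differences were −2.94 ± 0.13 (adjusted p = 6.5e-08) and −2.20 ± 0.10 (adjusted p = 3.9e-08). CD72 differed by −3.70 ± 0.14 and −3.70 ± 0.11, CD22 by −2.43 ± 0.21 and −2.27 ± 0.13, and BLK by −3.28 ± 0.11 and −2.29 ± 0.11, with DMSO and water. JCHAIN, which joins IgM and IgA into polymers, differed by −3.28 ± 0.16 and −3.17 ± 0.14. The 5 members higher in SUDHL-2, named after their values were seen, were the phosphatase PTPN6 (SHP-1), IGLL1 of the surrogate light chain, LYN, the Ras activator RASGRP3 and the kinase subunit PIK3CD. The call of PIK3CD with DMSO was lost without SUDHL-2 replicate 3 and without SUDHL-4 replicate 1 or 3 (adjusted p up to 0.11).

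Both lines carried B-cell antigens, though not at the same levels. Over 17 tested pan-B-cell antigens, 10 were lower in SUDHL-2 in both vehicles (58.8%, against 21.2% of all entries) and 5 higher (29.4%, against 17.8%). The summed log2 level of the 17 was 131.0 to 131.8 in SUDHL-2, against 147.7 to 149.3 in SUDHL-4 with DMSO. With water the sum was 135.0 to 136.5 in SUDHL-2, against 149.3 to 150.7 in SUDHL-4. MS4A1 (CD20) was detected on all 12 arrays and was not among the lower genes. It was at 9.70, 9.12 and 9.35 in SUDHL-2, against 8.63, 8.03 and 8.42 in SUDHL-4 with DMSO, a difference of 1.03 ± 0.19 (adjusted p = 8.7e-04). With water the lines overlapped, at 8.15, 8.15 and 7.93 in SUDHL-2, against 7.95, 8.08 and 7.86 in SUDHL-4 (0.11 ± 0.10, adjusted p = 0.35), and its 2 probes differed in sign there. FCRLA, an intracellular Fc receptor-like protein, differed by −3.51 ± 0.11 and −2.58 ± 0.09, and HVCN1, a proton channel of B cells, by −2.61 ± 0.14 and −2.53 ± 0.10. No SUDHL-2 DMSO array detected HVCN1, so its difference there is at least of that size.

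The transcription factors of the B lineage split in the same way. Of 24 tested, 13 were lower in SUDHL-2 in both vehicles (54.2%, against 21.2% of all entries) and 5 higher (20.8%, against 17.8%). The list's medians were −0.41 and −0.60. ID3, an inhibitor of E-proteins, was not detected in SUDHL-2 with DMSO and was at 7.06, 6.92 and 7.21 there with water, against 11.23, 11.11 and 11.12 in SUDHL-4 with DMSO and 11.54, 11.51 and 11.12 with water. TCF3, an E-protein that ID3 restrains, was also lower, by −3.57 ± 0.22 and −2.05 ± 0.10. TCF4, another E-protein, was detected only in SUDHL-2, at 9.82, 9.62 and 9.71 with DMSO and 9.59, 9.65 and 9.67 with water, at least 10.5-fold and at least 9.72-fold higher. ID2, a relative of ID3, was higher by 2.71 ± 0.12 and 2.69 ± 0.10, and ETV6, an ETS repressor, by at least 7.63-fold and at least 7.03-fold. POU2AF1 (OCA-B), a coactivator at immunoglobulin promoters, was at 7.76, 7.28 and 7.26 in SUDHL-2, against 11.13, 11.44 and 10.72 in SUDHL-4 with DMSO (−3.66 ± 0.20), and with water it differed by −1.94 ± 0.10. FOXO1, which the PI3K pathway keeps out of the nucleus, differed by −2.29 ± 0.14 and −2.66 ± 0.09.

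Plasmablast genes did not move together. Among 15 tested, 5 were higher in SUDHL-2 in both vehicles (33.3%, against 17.8% of all entries) and 7 were lower (46.7%, against 21.2%). The 5 were IRF4, XBP1, PRDM1, SLAMF7 and CAV1, the last 3 named after their values were seen. XBP1, which expands the secretory apparatus, was at 11.23, 10.51 and 10.98 in SUDHL-2, against 8.15, 7.88 and 8.001 in SUDHL-4 with DMSO, a difference of 2.90 ± 0.18 (adjusted p = 7.0e-07), and with water it differed by 3.41 ± 0.09 (adjusted p = 9.7e-10). PRDM1 (Blimp-1), the repressor that ends the B-cell program, was detected only in SUDHL-2, for at least 3.83-fold and at least 3.92-fold. With its probes taken apart, 1 gave only 0.27 with DMSO (adjusted p of limma 0.089). CD27, a receptor on memory B cells and plasmablasts, was lower, at 6.20, 6.41 and 6.31 in SUDHL-2, against 11.17, 11.25 and 11.13 in SUDHL-4 with DMSO, and at 7.06, 7.21 and 7.03 in SUDHL-2, against 11.69, 11.39 and 11.29 in SUDHL-4 with water. The sign of this list's median with water changed with the scaling.

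**Figure D4:**
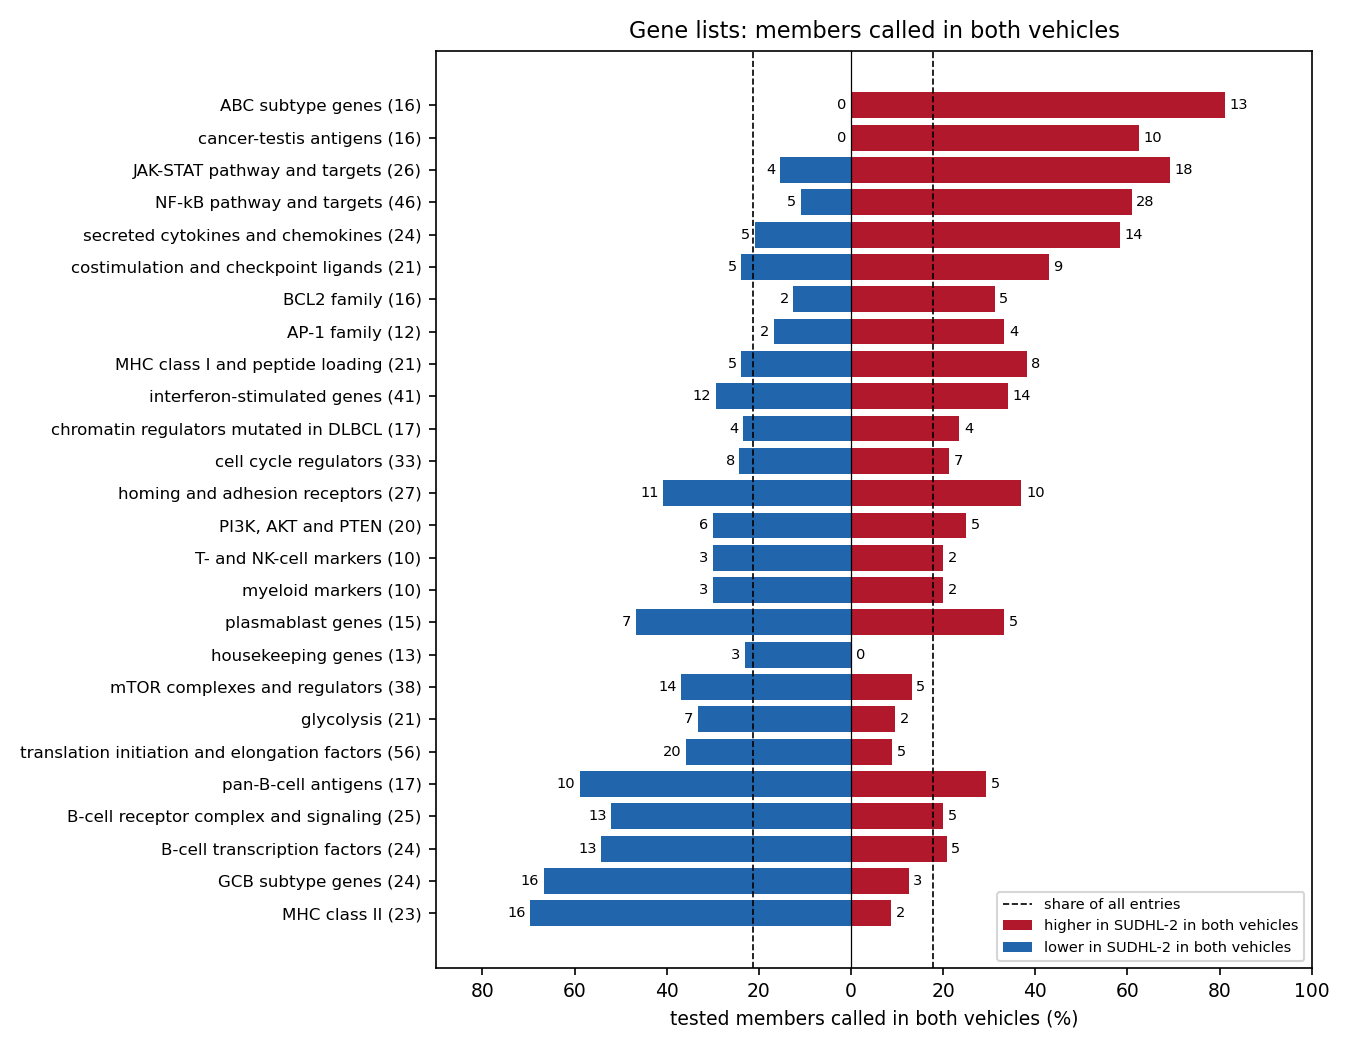
For each gene list with at least 10 tested members (number in brackets), the bar to the right is the percent of members higher in SUDHL-2 in both vehicles and the bar to the left the percent lower, with the number of members at the end of each bar. Dashed lines mark the same shares over all entries, 17.8% and 21.2%. ABC subtype genes stand at the top with 13 of 16 higher, and MHC class II genes at the bottom with 16 of 23 lower.

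Many NF-kB pathway and target genes were higher in SUDHL-2. In resting cells IkB proteins hold NF-kB dimers in the cytoplasm until the IKK complex marks them for degradation, and freed NF-kB turns on its own inhibitors along with cytokines and survival genes. Of 46 tested members of the pathway and target list, 28 were higher in SUDHL-2 in both vehicles (60.9%, against 17.8% of all entries). Another 5 were lower (10.9%, against 21.2%), and the list's medians were 0.74 and 1.19. Of the 28, 5 were detected only in SUDHL-2 and passed the filter through that line alone. The promoters of several of the higher genes hold the binding motif of the pathway, and these windows, 30 bases each from RefSeq on GRCh38.p14, are shown because they belong to the genes described next. The motif searched was GGGA, any base, TT, any base and CC, on either strand, in capitals below, within 250 bases before to 50 bases after the annotated start.

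NFKBIZ, chr3:101827757-101827786, plus strand: tttttggtctGGGAATTTCCagtgtgcaga
NFKBIA, chr14:35404811-35404840, plus strand: gtcaggctcgGGGAATTTCCaagccagtca
IL6, chr7:22727117-22727146, plus strand: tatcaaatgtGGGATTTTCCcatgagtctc
TNFAIP3, chr6:137867182-137867211, minus strand: ggatttccacGGGACTTTCCaaagtcacgt
Of the 28 higher genes, 25 had a promoter in the table and 7 of these (28%) held the motif, against 1.41% of 27305 promoters. Over all 39 tested list members with a promoter, 9 held it. The list was made of known pathway and target genes, so the contrast with all promoters says nothing about the direction of the difference. The match is a description of sequence, and binding was not measured.

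NFKBIZ, an IkB-like nuclear protein that helps NF-kB at a subset of its targets, was at 11.80, 11.33 and 11.48 in SUDHL-2 with DMSO and 11.15, 11.45 and 11.29 with water. SUDHL-4 arrays did not detect it, for at least 36.8-fold (adjusted p = 3.5e-09) and at least 30.8-fold (adjusted p = 1.7e-10). NFKBIA, the classical inhibitor IkB-alpha, was at 13.56, 14.26 and 14.04 in SUDHL-2, against 11.18, 11.14 and 11.01 in SUDHL-4 with DMSO, and at 14.15, 13.70 and 14.16 in SUDHL-2, against 10.94, 11.09 and 11.22 in SUDHL-4 with water. The lines did not overlap, and the difference was 2.85 ± 0.17 (adjusted p = 6.0e-07) and 2.92 ± 0.14 (adjusted p = 3.9e-08). TNFAIP3 (A20), a ubiquitin-editing inhibitor of the pathway, chosen for its promoter match, was higher by 1.02 ± 0.12 and 0.74 ± 0.09. CFLAR, which blocks caspase-8, was at least 21.9-fold and at least 20.5-fold higher, and CD44, a hyaluronan receptor, at least 20.2-fold and at least 15.6-fold, although its 3 probes ranged from 1.09 to 6.91 with DMSO. BCL2A1, an antiapoptotic NF-kB target, was higher by 2.69 ± 0.36 and 1.56 ± 0.31, with the widest error of the genes named from this list. Every SUDHL-4 DMSO array was at its floor for BCL2A1, so 2.69 is a lower limit. The 5 members lower in SUDHL-2, named after their values were seen, were TNF, NFKBIE, IKBKB, LTB and GADD45B, the last by −2.48 ± 0.13 and −2.25 ± 0.09.

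**Figure D5:**
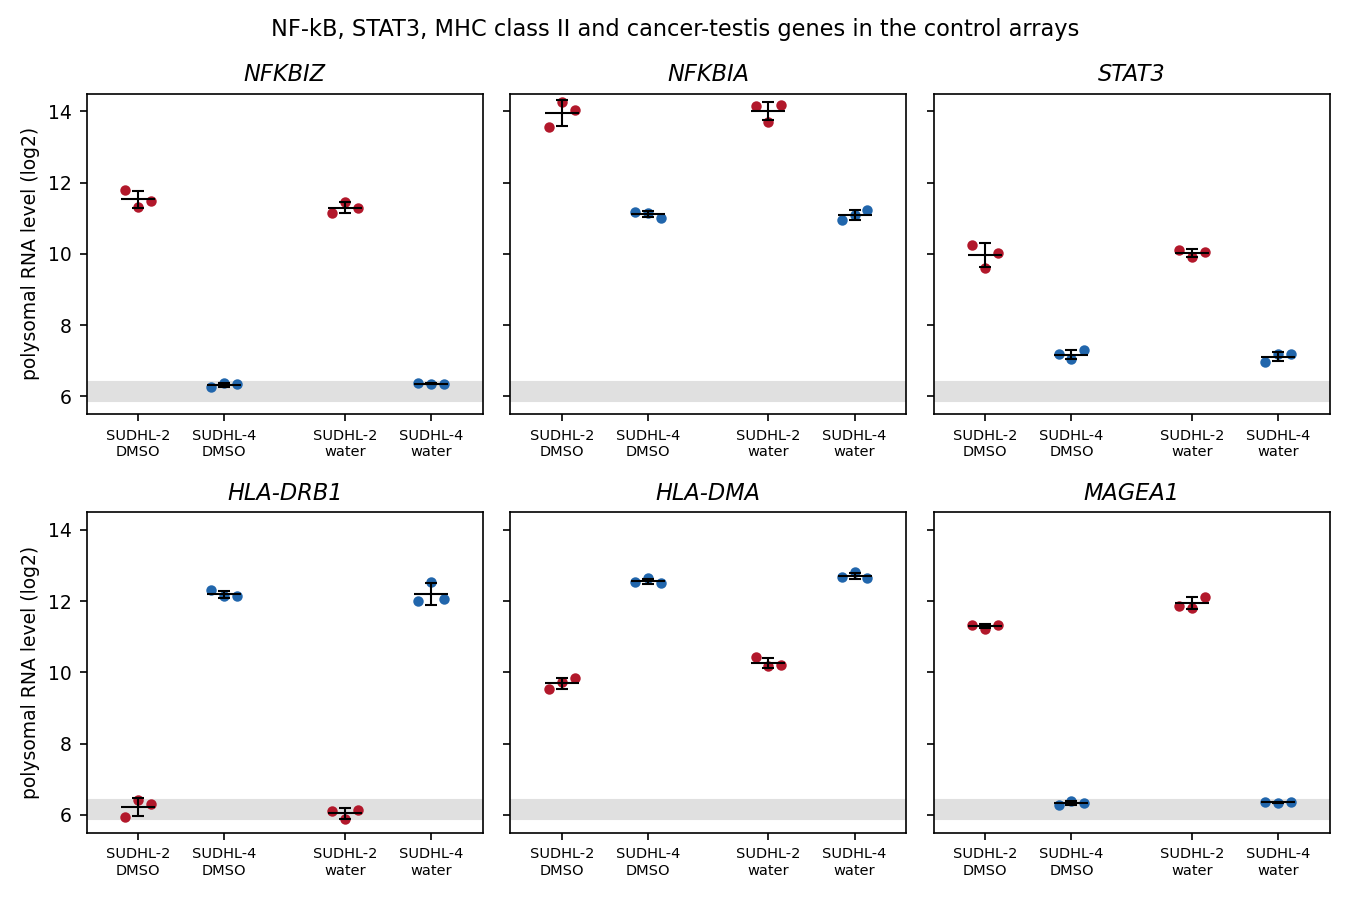
Level (log2) on each control array of 6 genes, with SUDHL-2 in red left of SUDHL-4 in blue for each vehicle; bars are the mean ± SD of 3 arrays, and the gray band spans the array floors, 5.88 to 6.41. NFKBIZ, NFKBIA, STAT3 and MAGEA1 lie higher in SUDHL-2, and HLA-DRB1 and HLA-DMA lie lower, in both vehicles.

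Many tested genes of the JAK-STAT pathway and its targets were also higher. Cytokine binding brings JAK kinases together, which phosphorylate STAT factors, and SOCS proteins and phosphatases dampen the signal. Of 26 tested members, 18 were higher in SUDHL-2 in both vehicles (69.2%, against 17.8% of all entries). Another 4 were lower (15.4%, against 21.2%), and the list's medians were 1.07 and 1.19. Of the 18, 7 were detected only in SUDHL-2 and passed the filter through that line alone, which set their direction. STAT3, which carries IL-6 and IL-10 signals, was at 10.26, 9.61 and 10.04 in SUDHL-2, against 7.18, 7.04 and 7.31 in SUDHL-4 with DMSO, and at 10.12, 9.91 and 10.05 in SUDHL-2, against 6.96, 7.19 and 7.20 in SUDHL-4 with water. Its difference was 2.80 ± 0.17 (adjusted p = 6.1e-07) and 2.91 ± 0.10 (adjusted p = 5.2e-09), and the lines did not overlap. JAK1 was higher by 2.83 ± 0.22 and 2.65 ± 0.12, and the IL-2 receptor chain IL2RB by 2.78 ± 0.14 and 4.13 ± 0.10. Every SUDHL-4 DMSO array was at its floor for IL2RB, so 2.78 is a lower limit. Among the dampers of the pathway, SOCS2 was higher by at least 3.70-fold and at least 4.17-fold, and the phosphatase PTPN1 by 1.74 ± 0.12 and 2.46 ± 0.10. The amino acid oxidase IL4I1, a target of the pathway, was at least 7.14-fold and at least 9.69-fold higher. The 4 lower members, named after their values were seen, were SOCS1, STAT6, IL4R and IL7R.

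Secreted factors followed, with 14 of 24 tested cytokines and chemokines higher in SUDHL-2 in both vehicles (58.3%, against 17.8% of all entries) and 5 lower (20.8%, against 21.2%). Another 28 on the array did not pass the detection filter. Of the 14, 5 were detected only in SUDHL-2 and passed the filter through that line alone. CXCL13, the chemokine that draws B cells into follicles, was at 11.87, 11.82 and 11.96 in SUDHL-2 with DMSO and 11.03, 11.03 and 10.21 with water, and was not detected in SUDHL-4, for at least 47.0-fold and at least 21.2-fold. IL6 was at 10.31, 10.27 and 10.34 in SUDHL-2 with DMSO and 9.59, 10.11 and 10.02 with water, likewise not detected in SUDHL-4, for at least 15.7-fold and at least 11.8-fold. EBI3, a subunit shared by IL-27 and IL-35, was detected in both lines and was higher by 3.67 ± 0.12 and 4.74 ± 0.12. LTA, lymphotoxin alpha, was higher by 1.96 ± 0.12 and 2.25 ± 0.10, and IL17F by at least 14.8-fold and at least 10.2-fold. Within the AP-1 family, 4 of 12 tested members were higher (33.3%, against 17.8% of all entries) and 2 lower (16.7%, against 21.2%). Next to BATF, the higher ones were ATF3 (2.68 ± 0.13 and 2.98 ± 0.09), JUN (at least 3.13-fold and at least 3.89-fold) and BATF3 (at least 2.26-fold and at least 3.73-fold). FOS was lower, at least 1.82-fold with DMSO and at least 3.22-fold with water, as was FOSB.

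Most tested genes of MHC class II were lower in SUDHL-2. Class II molecules are alpha and beta chains that meet the invariant chain CD74 in the endoplasmic reticulum and exchange its remnant for peptide with the help of HLA-DM, under the control of HLA-DO, and the coactivator CIITA turns the genes on through factors bound to their promoters. Of 23 tested members 16 were lower in SUDHL-2 in both vehicles (69.6%, against 21.2% of all entries) and 2 higher (8.7%, against 17.8%). The list's medians were −1.24 and −1.21, and 12 of the 16 passed 1 on the log2 scale in each vehicle. Of the 16, 2 were detected only in SUDHL-4. The promoter element known as the Y box, bound by NF-Y, is shown for 3 of the lower genes, since these are the genes described next. The letters searched, CTGATTGG on either strand, hold the reverse complement of CCAAT and are in capitals (30 bases each from RefSeq on GRCh38.p14).

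HLA-DRB1, chr6:32589879-32589908, minus strand: gaactcagatgCTGATTGGttctccaacac
HLA-DRB5, chr6:32530362-32530391, minus strand: gaactcagatgCTGATTGGttctccaacac
HLA-DMA, chr6:32953161-32953190, minus strand: cctacgcttctCTGATTGGtttagacaaaa
The windows of HLA-DRB1 and HLA-DRB5 were identical. Of 12 lower members with a promoter in the table, 4 (33.3%) held the exact letters on either strand, the other being NFYA, itself a subunit of NF-Y, against 4.16% of 27305 promoters. Over all 16 tested list members with a promoter, 6 held them. The list was made of class II genes and their regulators, so the contrast with all promoters says nothing about the direction of the difference. Binding was not measured here either.

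HLA-DRB1 was detected on no SUDHL-2 array. In SUDHL-4 it was at 12.31, 12.14 and 12.14 with DMSO and 11.99, 12.54 and 12.07 with water, at least 62.8-fold (adjusted p = 2.5e-09) and at least 71.1-fold (adjusted p = 3.6e-10) above SUDHL-2. HLA-DRB5 was at 13.28, 13.42 and 13.29 in SUDHL-4 with DMSO and 13.20, 13.34 and 13.30 with water, at least 138-fold and at least 150-fold above SUDHL-2, which again did not detect it. The DRB genes are near-identical and differ between people, so a probe may miss the allele of a line, and the size of these differences is uncertain for that reason. The less variable members were detected in both lines: HLA-DMA was at 9.53, 9.72 and 9.83 in SUDHL-2, against 12.54, 12.64 and 12.50 in SUDHL-4 with DMSO, and at 10.43, 10.18 and 10.20 in SUDHL-2, against 12.68, 12.81 and 12.66 in SUDHL-4 with water. HLA-DMA thus differed by −2.86 ± 0.12 and −2.45 ± 0.10, its partner HLA-DMB by −3.11 ± 0.12 and −2.54 ± 0.11, and HLA-DOB by −3.10 ± 0.13 and −3.22 ± 0.12. HLA-DPB1 was at least 11.5-fold lower in SUDHL-2 with DMSO and differed by −3.47 ± 0.13 with water, where 1 SUDHL-2 array detected it. The 2 members higher in SUDHL-2, named after their values were seen, were RFXAP, a promoter-binding factor, and the protease CTSS. Neither call with DMSO was firm, since leaving out 1 array raised the adjusted p of limma to as much as 0.092 for RFXAP and 0.070 for CTSS, and without moderation RFXAP was called in neither vehicle. CD74 differed by −2.87 ± 0.14 and −1.64 ± 0.13. The alpha chain gene HLA-DRA, named after its values were seen, was lower but stayed bright in SUDHL-2. HLA-DRA was at 13.28, 13.58 and 13.45 there, against 14.38, 14.38 and 14.37 in SUDHL-4 with DMSO. With water it was at 12.48, 12.24 and 12.41 in SUDHL-2, against 14.21, 14.35 and 14.23 in SUDHL-4. CIITA, named for its role, was called with DMSO (−0.69 ± 0.12, adjusted p = 5.2e-04) and not with water (−0.17 ± 0.09, adjusted p = 0.11), where its sign depended on the scaling.

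MHC class I differed less and not in 1 direction. Of 21 tested genes of class I and peptide loading, 8 were higher in SUDHL-2 in both vehicles (38.1%, against 17.8% of all entries). Another 5 were lower (23.8%, against 21.2%), and the sign of the list's median with DMSO changed with the scaling. HLA-B was at 8.89, 8.70 and 8.82 in SUDHL-2, against 8.13, 8.51 and 8.18 in SUDHL-4 with DMSO (0.53 ± 0.14), and at 10.05, 10.08 and 9.91 in SUDHL-2, against 8.22, 8.34 and 7.95 in SUDHL-4 with water (1.85 ± 0.12), with the same reservation about alleles. TAP1, which pumps peptides into the endoplasmic reticulum, was higher by 0.66 ± 0.12 and 1.77 ± 0.09, and HLA-F was lower, by −1.70 ± 0.15 and −0.70 ± 0.11.

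Surface receptors of costimulation and homing went both ways. Of 21 costimulation and checkpoint genes tested, 9 were higher in SUDHL-2 in both vehicles (42.9%, against 17.8% of all entries) and 5 lower (23.8%, against 21.2%). CD58, the ligand of CD2 on T cells, was at least 14.99-fold and at least 8.53-fold higher, and CD80, a ligand of CD28 and CTLA-4, was higher by 4.18 ± 0.11 with DMSO and at least 5.35-fold with water. Every SUDHL-4 DMSO array was at its floor for CD80, so 4.18 is a lower limit. CD70, the ligand of CD27, was higher by 1.84 ± 0.14 and 3.56 ± 0.15, while CD27 itself was lower in SUDHL-2, as given above. Of 27 homing and adhesion genes, 10 were higher (37%, against 17.8% of all entries) and 11 lower (40.7%, against 21.2%). The integrin chain ITGB2 (CD18) was at 8.62, 8.14 and 8.38 in SUDHL-2, against 13.46, 13.64 and 13.58 in SUDHL-4 with DMSO (−5.18 ± 0.14), and differed by −4.35 ± 0.10 with water. CXCR4, the receptor of the dark zone chemokine CXCL12, was at least 8.18-fold lower in SUDHL-2 with DMSO and differed by −2.92 ± 0.12 with water. GPR183 (EBI2), an oxysterol receptor that guides B cells out of follicle centers, was at least 7.33-fold and at least 4.99-fold higher, although its 3 probes ranged from 0.68 to 4.46 with DMSO.

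Of 20 tested genes of the PI3K pathway, 5 were higher in SUDHL-2 in both vehicles and 6 were lower, and with the Z-score over all probes 6 were higher and 3 lower. SGK1, a kinase related to AKT that mTORC2 activates, was at 11.51, 11.50 and 11.67 in SUDHL-2, against 7.50, 7.22 and 7.36 in SUDHL-4 with DMSO, and at 11.41, 11.34 and 11.28 in SUDHL-2, against 7.91, 8.10 and 7.97 in SUDHL-4 with water. The differences were 4.20 ± 0.12 and 3.35 ± 0.09, and 1 of its 4 probes gave only 0.65 and 0.26. TCL1B, an AKT coactivator, was higher by 1.13 ± 0.12 and 2.79 ± 0.13, INPP4B, a lipid phosphatase, by at least 6.07-fold and at least 2.23-fold, and FOXO3 was lower by −1.82 ± 0.12 and −1.55 ± 0.09.

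The mTOR list held 38 tested genes, of which 14 were lower in SUDHL-2 in both vehicles (36.8%, against 21.2% of all entries). Another 5 were higher (13.2%, against 17.8%), the 5 becoming 3 with median centring. Its largest differences were in DEPTOR and DDIT4. DEPTOR, which binds mTOR in both of its complexes and inhibits it, was detected on no SUDHL-2 array and was at 9.82, 9.36 and 9.72 in SUDHL-4 with DMSO and 10.05, 9.97 and 10.05 with water, at least 10.6-fold and at least 15.7-fold above SUDHL-2. DDIT4 (REDD1), a stress-induced inhibitor of mTORC1, was at 8.74, 8.59 and 8.75 in SUDHL-2, against 11.60, 11.67 and 11.40 in SUDHL-4 with DMSO (−2.86 ± 0.12), and at 8.25, 8.02 and 8.04 in SUDHL-2, against 11.47, 11.60 and 11.63 in SUDHL-4 with water (−3.46 ± 0.10). NPRL2, of the GATOR1 complex that restrains mTORC1 when amino acids are short, differed by −1.77 ± 0.11 and −1.14 ± 0.12. LAMTOR2, which is not an inhibitor of the kinase, was lower too. LAMTOR2 was at 9.66, 9.81 and 9.78 in SUDHL-2, against 11.43, 11.47 and 11.56 in SUDHL-4 with DMSO. With water it was at 10.76, 10.34 and 10.94 in SUDHL-2, against 11.58, 11.35 and 11.44 in SUDHL-4. The lysosomal GTPase RRAGA, which brings mTORC1 to amino acids, was higher by 1.25 ± 0.13 and 1.08 ± 0.09. MTOR itself, named for its role, differed by 0.32 ± 0.14 with DMSO (adjusted p = 0.069) and 0.31 ± 0.09 with water (adjusted p = 0.011). The call of MTOR with water was lost with quantile normalization (adjusted p = 0.058), median centring (0.070), normexp background correction (0.10) and without SUDHL-4 water replicate 3 (0.053). The list's median was −0.33 with DMSO and −0.04 with water, and the sign with water changed with the scaling.

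Of 56 translation factors, 20 were lower in SUDHL-2 in both vehicles (35.7%, against 21.2% of all entries) and 5 were higher (8.93%, against 17.8%), with medians of −0.22 and −0.26. EIF5A, the factor that carries hypusine, was lower by −2.05 ± 0.12 and −2.08 ± 0.10, EIF3B, a scaffold subunit of the initiation factor eIF3, by −2.16 ± 0.13 and −1.33 ± 0.09, and MKNK2, a kinase of eIF4E, by −2.28 ± 0.16 and −1.27 ± 0.11. MKNK1, the relative of MKNK2, was higher by 0.68 ± 0.14 and 1.66 ± 0.12. MYC was lower by −1.09 ± 0.18 and −0.85 ± 0.12, at 10.74, 9.99 and 10.30 in SUDHL-2, against 11.49, 11.38 and 11.42 in SUDHL-4 with DMSO.

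Cell cycle and survival genes were mixed. Of 33 cell cycle regulators, 7 were higher and 8 lower in SUDHL-2 in both vehicles, close to the shares of all entries. CDKN1A (p21) was higher by 2.04 ± 0.18 and 2.39 ± 0.13, and CCND3 (cyclin D3) by 1.68 ± 0.13 and 2.29 ± 0.11. E2F2 was lower by −3.46 ± 0.14 and −3.09 ± 0.11. In the BCL2 family 5 of 16 were higher (31.2%, against 17.8% of all entries) and 2 lower (12.5%, against 21.2%). BMF, a proapoptotic member, was higher by 1.86 ± 0.12 and 3.19 ± 0.10, and BIK, another, was detected only in SUDHL-4, at least 6.72-fold and at least 15.8-fold above SUDHL-2. BCL2 itself changed sign between vehicles, at 7.23, 7.31 and 7.34 in SUDHL-2, against 6.56, 6.76 and 6.66 in SUDHL-4 with DMSO (0.63 ± 0.11), and at 6.70, 6.62 and 6.62 in SUDHL-2, against 7.09, 6.95 and 7.04 in SUDHL-4 with water (−0.38 ± 0.09). Its 4 probes ranged from −1.32 to 2.23 with DMSO, so the averaged value of BCL2 stands for no single transcript.

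Cancer-testis antigens are genes normally silent outside the germ line. Of 43 on the array, 27 did not pass the detection filter. Of 16 tested 10 were higher in SUDHL-2 in both vehicles (62.5%, against 17.8% of all entries) and none was lower, with medians of 2.11 and 2.81. Of the 10, 7 were detected only in SUDHL-2. These passed the filter through that line alone, which set their direction. MAGEA1 was at 11.33, 11.22 and 11.34 in SUDHL-2 with DMSO and 11.87, 11.81 and 12.13 with water and was not detected in SUDHL-4, for at least 31.3-fold and at least 47.9-fold. PAGE5 was at least 18.4-fold and at least 13.0-fold higher, CTAG2 at least 8.61-fold and at least 18.8-fold, and MAGEA3 at least 9.02-fold and at least 22.2-fold. The probes of CTAG2 gave 1.05 and 5.16 with DMSO. CT45A3, of the same kind of gene but not on the list, had the largest mean difference over both vehicles of the genes named here that were higher in SUDHL-2, at 13.43, 13.85 and 13.87 in SUDHL-2 with DMSO and 12.82, 12.94 and 12.74 with water, at least 167-fold and at least 89.5-fold above SUDHL-4. Members of these families are near-identical in sequence, so a probe may read several of them.

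The remaining genes at the extremes were of many kinds. Among the 15 genes highest in SUDHL-2, SRGN, the core protein of granule proteoglycans, was at 12.17, 12.75 and 12.79 with DMSO and 12.06, 12.04 and 12.20 with water and was not detected in SUDHL-4, for at least 75.3-fold and at least 53.7-fold. ACTG2, an actin of smooth muscle, was at least 30.2-fold and at least 66.0-fold higher, and HENMT1, a methyltransferase of piRNAs, at least 51.0-fold and at least 32.3-fold. TNIP3, a partner of TNFAIP3, was at least 33.9-fold and at least 18.9-fold higher. TRIP6, TRPM4, GNG11, OLFML2A and CFAP251 completed the set with the genes already given. In the other direction, CD52, a small lipid-anchored surface peptide of lymphocytes, was at 6.21, 6.69 and 6.60 in SUDHL-2, against 13.39, 13.60 and 13.80 in SUDHL-4 with DMSO, and at 6.30, 6.05 and 6.44 in SUDHL-2, against 13.60, 13.28 and 13.43 in SUDHL-4 with water (−7.09 ± 0.16 and −7.17 ± 0.12). MGMT, which repairs alkylated guanine in DNA, was at least 35.5-fold and at least 47.5-fold lower in SUDHL-2, where no array detected it. CBS, which makes cystathionine from homocysteine, was at least 35.1-fold and at least 42.7-fold lower, and EVL, a regulator of actin filaments, at least 53.1-fold and at least 57.3-fold. LY86 (MD-1), which pairs with the Toll-like receptor relative CD180, was lower by −5.24 ± 0.14 with DMSO and at least 55.1-fold with water. TUBB3, KCNK12, NCF1C, RGCC and DEF8 made up the rest of the 15 lowest with the genes already given, and NCF1C is a near-identical copy of NCF1.

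Of 41 interferon-stimulated genes, 14 were higher in SUDHL-2 in both vehicles and 12 were lower. The split moved with the processing, to 14 higher and 8 lower with quantile normalization, 15 and 8 with normexp background correction, and 15 and 7 with the Z-score over all probes. IFITM1, which hinders viral entry, was at least 11.9-fold and at least 13.2-fold higher, and the RNA sensor IFIH1 (MDA5) was higher by 3.64 ± 0.25 with DMSO and at least 4.27-fold with water. ISG15, a ubiquitin-like modifier, was lower by −3.25 ± 0.17 and −1.43 ± 0.14, and OAS1, an activator of RNase L, by −2.02 ± 0.15 and −1.97 ± 0.17. Of 17 chromatin regulators mutated in DLBCL, 4 were higher and 4 lower, the lower ones including EP300 (−2.07 ± 0.15 and −1.59 ± 0.10) and SMARCA4 (−1.71 ± 0.15 and −1.57 ± 0.12). Of 21 glycolysis genes 7 were lower and 2 higher. Among 13 housekeeping genes none was higher and 3 were lower (23.1%, against 21.2% of all entries): ACTB by −1.06 ± 0.13 and −0.59 ± 0.15, GAPDH by −1.32 ± 0.12 and −0.80 ± 0.13, and PPIA by −2.30 ± 0.15 and −1.52 ± 0.14. ACTB with water was −0.13 and no longer called with quantile normalization or normexp background correction, which left 2 genes lower.

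Markers of other cell types were looked at because a cell line should hold none of those cells. Of 31 T- and NK-cell markers on the array, 21 did not pass the detection filter, and CD3D, CD3E, CD4, CD5, CD7 and CD8A were detected on no control array. Of the 10 tested, 2 were higher (20%, against 17.8% of all entries) and 3 lower (30%, against 21.2%) in SUDHL-2 in both vehicles. Their summed log2 level was 66.4 to 68.2 in SUDHL-2, against 71.2 to 71.6 in SUDHL-4 with DMSO. With water the sum was 67.6 to 68.5 in SUDHL-2, against 72.4 to 72.7 in SUDHL-4. The lower ones were CD247, LCK and TBX21. CD247, the zeta chain of the T-cell receptor, was not detected in SUDHL-2 and was at 10.66, 10.96 and 10.65 in SUDHL-4 with DMSO and 10.88, 10.73 and 10.85 with water, at least 23.2-fold and at least 27.3-fold above SUDHL-2, and LCK, a T-cell kinase, differed by −1.15 ± 0.13 and −1.88 ± 0.12, with 1 of its 3 probes at −0.27 with DMSO. No SUDHL-2 water array detected LCK, so its difference there is at least of that size. GZMM and GZMB, granzymes of cytotoxic cells, were detected only in SUDHL-2, GZMM at least 1.29-fold and at least 2.08-fold and GZMB at least 1.45-fold and at least 1.62-fold above SUDHL-4. The call of GZMM with DMSO and those of TBX21 in both vehicles were not firm. On leaving out single arrays the adjusted p of limma reached 0.098 for GZMM with DMSO and, for TBX21, 0.17 with DMSO and 0.067 with water, and with the Z-score over all probes it was 0.13 for TBX21 with water. The count of list members higher was 1 with median centring and 4 without the floor. Of 10 tested myeloid markers, 2 were higher (20%, against 17.8% of all entries) and 3 lower (30%, against 21.2%). The higher ones were AIF1 and MNDA, an interferon-inducible nuclear protein, which was detected only in SUDHL-2 (at least 10.8-fold and at least 4.85-fold). The lower ones were CEBPB (−1.36 and −0.76), CSF2RA and CEBPA, which was detected only in SUDHL-4. CD163, ITGAM, S100A8 and S100A9 were detected on no control array. The summed log2 level of the 10 myeloid markers was 73.04 to 74.52 in SUDHL-2, against 72.81 to 73.35 in SUDHL-4 with DMSO, and 72.78 to 74.24 in SUDHL-2, against 73.35 to 73.76 in SUDHL-4 with water, so the lines overlapped. Of 17 stromal, endothelial, epithelial and erythroid markers on the array, 4 were tested. The stromal genes DCN and THY1 were higher in SUDHL-4, at least 11.3-fold and at least 21.0-fold for DCN and at least 9.41-fold and at least 12.1-fold for THY1. The probes of DCN gave −1.82 and −5.18 with DMSO. PECAM1 was detected on all SUDHL-4 arrays and no SUDHL-2 array, and was called lower in SUDHL-2 with water only. The epithelial adhesion molecule EPCAM was higher in SUDHL-2 (2.84 ± 0.13 and 2.75 ± 0.13). No SUDHL-4 DMSO array detected EPCAM, so 2.84 is a lower limit. COL1A1, COL1A2, PDGFRB, KRT8 and KRT18 were detected on no control array. What part such transcripts have in the other results was not tested.

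The size of the line difference depended on the vehicle for many genes. The difference with DMSO minus the difference with water was called for 6480 entries (47.2%), 3075 above zero (22.4%) and 3405 below (24.8%). Among the 5357 entries called in both vehicles in the same direction, 2512 also differed in size, the difference being larger with DMSO in 2006 and larger with water in 506. SPP1 (osteopontin), a secreted phosphoprotein, was at 12.21, 12.11 and 12.47 in SUDHL-2, against 7.999, 7.50 and 8.01 in SUDHL-4 with DMSO (4.43 ± 0.17), and at 10.15, 9.72 and 9.61 in SUDHL-2, against 8.19, 8.81 and 8.35 in SUDHL-4 with water (1.38 ± 0.18). The gap of 3.05 ± 0.27 between the vehicles was the largest of any named gene (adjusted p = 1.4e-05). FAP, a serine protease, was at least 6.25-fold higher in SUDHL-2 with DMSO and only at least 1.25-fold with water. ESRRA, a nuclear receptor of mitochondrial genes, was at 8.90, 9.15 and 9.04 in SUDHL-2, against 8.92, 9.39 and 9.10 in SUDHL-4 with DMSO, where the lines overlapped, and at 10.57, 10.42 and 10.67 in SUDHL-2, against 8.58, 8.53 and 8.36 in SUDHL-4 with water. MT2A, a metallothionein, and SLC35B2, a nucleotide sulfate carrier, were lower in SUDHL-2 with DMSO (−0.56 ± 0.15 and −0.62 ± 0.12) and higher with water (1.56 ± 0.16 and 1.41 ± 0.09). The probes of RNA28SN5, a copy of the large ribosomal RNA, varied widely within groups, at 12.26, 9.02 and 12.18 in SUDHL-4 with DMSO and 10.95, 8.95 and 9.50 in SUDHL-2 with water, and without SUDHL-4 DMSO replicate 2 its difference with DMSO was −0.58 in place of 0.49. Of the other genes ranked by this gap, SCARNA9 (2.11 ± 0.28) and VPS35 (2.03 ± 0.30) lay above zero, and GARIN5A (−2.13 ± 0.13) and RABAC1 (−2.06 ± 0.22) below it.

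The treated arrays gave the line difference once more, in arrays that took no part in choosing the genes. With INK128 7075 entries differed between the lines (51.5%) and with EtOH 7430 (54.1%). Of the 5357 entries called in both vehicles, 4461 (83.3%) were called in the same direction in the INK128 arrays and 13 in the opposite direction, and with EtOH these were 4158 (77.6%) and 13. In both sets of treated arrays 3652 (68.2%) were called in the same direction, and of the 1514 entries that passed 1 on the log2 scale in each vehicle, 1454 (96%) were. The subtype markers kept their side: the difference of BATF was 5.00 with INK128 and 6.24 with EtOH, of IRF4 4.63 and 4.62, of ENTPD1 4.71 and 4.07, of MME −4.81 and −4.57, of SERPINA9 −4.42 and −4.89, and of CD79B −5.97 and −4.44. Exceptions among the genes named here included HLA-B, at −1.20 with INK128 and 1.84 with EtOH, and EZH2, at 1.83 with INK128 and −0.05 with EtOH. The treated cells shared lines, culture and array platform with the controls, and their treatment may shift either line.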

How the data were processed

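Polysomal RNA (pooled gradient fractions 9 to 11) was amplified from an oligo-dT primer, labeled with biotin and hybridized to Illumina HumanHT-12 BeadChips. The authors deposited the probe signal intensity of each array with a detection p-value, exported by GenomeStudio 1.9.0. The authors also made and deposited a score for each probe, the log signal centered and scaled within its array, which served here only as an alternative. A normalization of the exported signals was not stated. Of 47323 probes listed, 92 held no values. A probe was kept if at least 1 control group had it detected on all of its arrays at a detection threshold of 0.02, which left 17005. A gene detected in only 1 line therefore passed through that line, which set the direction of its difference. Signals were taken to log2, turned into a Z-score per array over the kept probes, multiplied by the mean SD (2.09) and added to the grand mean (8.31). Values were then floored at each array's lowest detected signal, brought to the same scale. Probes with the same symbol were averaged. Of the probes read, 30113 had 1 gene symbol in the platform annotation, 8 had several and the others are given without a name.

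SUDHL-2 was tested against SUDHL-4 in each vehicle with limma 3.58.1 in R 4.3.3 (lmFit, eBayes, Benjamini-Hochberg over all entries), and the vehicles were compared by an interaction term over the 12 control arrays. The code was tested on simulated data. The genes described were the 6 markers, the 15 highest and 15 lowest by mean difference, up to 6 per list with the largest mean difference called in both vehicles, the tested markers of other cells, a few genes fixed by name, and the 5 with the largest gap between vehicles each way; others are marked as named after their values were seen. The comparison, the markers and the 27 gene lists were chosen with earlier results of these data known. The number of arrays limits the precision. Alternatives covered the detection filter and threshold, normalization, background correction, Z-score basis, floor, probes taken apart, arrays in the fit, replicate block, moderation, call thresholds and leaving out each array. Promoters and their coordinates are from RefSeq, GRCh38.p14.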

Additional observations from a re-analysis of the deposited data

Results flagged for a closer look

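The size of the line difference was compared between the vehicles by the interaction term of 1 limma fit over the 12 control arrays, and the genes named above for which it was called and reached 1 on the log2 scale are given here with that value (the SUDHL-2 minus SUDHL-4 difference with DMSO minus the same difference with water). It was called for 47.2% of all entries. Genes higher in SUDHL-2 in both vehicles, and more so with DMSO, were CD80 (1.76), CXCL13 (1.15), EED (1.35), EZH2 (1.05), FAP (2.32), IFIH1 (1.54), INPP4B (1.44), MNDA (1.16), RASGRP3 (1.03) and SPP1 (3.05). Those higher in SUDHL-2 in both vehicles, and more so with water, were ACTG2 (−1.13), BATF (−1.32), BMF (−1.33), CD70 (−1.72), CTAG2 (−1.13), DENND3 (−1.34), EBI3 (−1.07), GARIN5A (−2.13), HLA-B (−1.31), IL2RB (−1.35), MAGEA3 (−1.30), PTPN6 (−1.06), TAP1 (−1.11), TCL1B (−1.66), TRIP6 (−1.13) and TRPM4 (−1.09). Genes lower in SUDHL-2 in both vehicles, and more so with DMSO, were CD74 (−1.23), HLA-F (−1.01), ISG15 (−1.82), KCNK12 (−1.20), MKNK2 (−1.01), POU2AF1 (−1.73), RABAC1 (−2.06) and TCF3 (−1.52). Those lower in SUDHL-2, and more so with water, were BIK (1.23), FOSB (1.10) and SERPINA9 (1.46). The sign of the fitted difference was not the same in both vehicles for BCL2 (1.01), ESRRA (−2.16), MT2A (−2.12), RNA28SN5 (2.74), SCARNA9 (2.11), SLC35B2 (−2.03) and VPS35 (2.03). Vehicle, experiment and time in culture cannot be told apart in these values. Each group held 3 arrays, so no array was screened as an outlier within its group.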

How the results depend on the processing

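The counts of entries called stayed within 1.5 times the main count under the other filters, scalings, background corrections and fits, except with water when probes had to be detected on every control array (5949 called), where fewer entries were tested. Requiring a difference of at least 1 on the log2 scale left 3861 entries with DMSO, 2083 with water, 1514 in both vehicles and 1825 for the difference between vehicles. The study's thresholds left 1526, 1233, 804 and 1955 in the same order. Leaving out 1 array at a time gave 7761 to 9121 calls with DMSO, 7224 to 9259 with water, 4869 to 5508 in both vehicles, 5570 to 7395 for the difference between vehicles, 5798 to 7703 in the INK128 arrays and 5184 to 7945 in the EtOH arrays. Without the 2 arrays that had the most detected probes, an alternative chosen after seeing the data, 5359 entries were called in both vehicles. The share of calls higher in SUDHL-2 with water was 42.1%, against 54.4% without a detection filter, 55.3% with the Z-score over all probes or the deposited Z-score table, and 34.4% with median centring. For the difference between vehicles the share above zero was 47.5%, against 34.8%, 37.2% and 57.6%. The median of all entries with water was −0.11, 0.03 with the Z-score over all probes and −0.21 with median centring. The sign of the list median in at least 1 vehicle turned with the scaling for plasmablast, homing, MHC class I, costimulation, T- and NK-cell, BCL2 family, PI3K, mTOR, chromatin and glycolysis genes. With the title's replicate number as a block 9067, 9232, 5700 and 6805 entries were called (DMSO, water, both vehicles, difference between vehicles). The numbers were not taken as pairs, since the correlations of same-numbered arrays were 0.24, 0.32 and 0.07 with DMSO and 0.19, 0.13 and −0.10 with water; with DMSO each array correlated best with its own number, with water not every one did.

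Of 338 differences of named genes followed through the alternatives, 328 were called. Reversals were as follows, and the cause was not tested. With each probe apart, the probe farthest from the mean gave −1.32 for BCL2 with DMSO and 0.94 with water, −0.18 for CAV1, −0.39 for MS4A1 and −0.092 for PRKCB with water, and 0.55 for FOXP1 with DMSO. FOXP1 with DMSO was 0.61 with probes detected on every array, 0.0048 without a detection filter, 0.0054 at a detection p of 0.01 and 0.029 with the Z-score over all probes or the deposited table. CIITA with water was 0.044 without a detection filter, with the Z-score over all probes and with the deposited table. IL16 with water was 0.0082 with the Z-score over all probes or the deposited table. MS4A1 with water was −0.39 with probes detected on every array. Without SUDHL-4 DMSO replicate 2, ESRRA with DMSO was 0.024 and RNA28SN5 −0.58, against up to 1.04 on leaving out another array. Leaving out 1 array at a time ended 9 calls, among them those of CTSS, PIK3CD, RFXAP and GZMM with DMSO, MTOR with water and TBX21 in both vehicles.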
